A study of Saccharomyces cerevisiae with 144 samples.

Results

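The comparison described here asked what the removal of motif B added in yeast cells whose Bdf1 protein already lacked the basic interaction domain (BID). It set the 3 IAA libraries of strain RDY247, in which the Bdf1 variant lacks both motif B and the BID (ΔB/BID), against the 3 IAA libraries of strain RDY246, in which it lacks the BID alone (ΔBID). These 6 libraries were chosen by their strain and treatment labels out of a series of 23 strains. RDY247 and RDY246 share the parent RDY73, a haploid Saccharomyces cerevisiae strain of mating type alpha. In both, the endogenous Bdf1 and Bdf2 proteins carry an auxin-inducible degron and an OsTIR1 gene under the GPD1 promoter supplies the auxin receptor. Both express the Bdf1 variant from a copy integrated at TRP1, under the BDF1 promoter. Cells were treated for 25 min with 1 mM IAA, the auxin that triggers loss of the tagged proteins, or with its solvent DMSO, and newly made RNA was then labelled for 4 min with 5 mM 4-thiouracil. Further libraries used were 3 ΔB/BID and 3 ΔBID libraries on DMSO, 3 IAA libraries of RDY245, whose variant lacks motif B alone (ΔB), and 6 IAA libraries of RDY234, which carries an unmodified copy (WT).

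Bdf1 and Bdf2 are the yeast members of the BET family, proteins that bind acetylated histone tails through paired bromodomains and that are linked to the general transcription factor TFIID at promoters. Motif B and the BID are conserved stretches between the bromodomains and the extra-terminal (ET) domain. In SLAM-seq, 4-thiouracil built into RNA during the pulse is chemically altered so that it is read as C in place of T, and reads with at least 2 such T>C conversions count as new RNA. The reads come from the 3′ ends of transcripts. Each value below is a share of a library, so it does not give the amount of new RNA, or of all RNA, per cell.

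The ΔB/BID IAA libraries held 5731046 to 7458647 reads and 142966 to 168806 T>C reads, against 6142243 to 8656331 reads and 207607 to 264680 T>C reads in the ΔBID IAA libraries. Over the whole series the totals ran from 4089393 to 21384793 reads. Total BDF1 reads, which pool the tagged endogenous gene and the integrated variant, were 322.1, 316.9 and 332.9 CPM (reads scaled to a common library total) in ΔB/BID cells, against 300.5, 306.4 and 303.8 CPM in ΔBID cells, so this gene does not check which domains were removed. The alpha-specific genes MF(ALPHA)1, MF(ALPHA)2, STE3 and SAG1 summed to 2100 to 2420 CPM in ΔB/BID cells and 1552 to 2087 in ΔBID cells, while 6 a-specific genes summed to 42.7 to 82.9 in ΔB/BID cells and 29.1 to 38.1 in ΔBID cells. None of these markers was at 0. Neither the alpha-specific nor the a-specific sums overlapped between the strains, and both were higher in ΔB/BID cells. The labels give 1 run of library numbers for each strain, so strain and position in that run cannot be told apart. Nothing in the labels says that replicates A to C were separate cultures, and p-values below measure only the spread between these libraries.

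Cells lacking both regions made a smaller share of new RNA than cells lacking the BID alone. T>C reads were 2.49%, 2.18% and 2.26% of all reads in the ΔB/BID IAA libraries (2.31% ± 0.162, SD, n = 3), against 3.38%, 3.06% and 3.05% in the ΔBID IAA libraries (3.16% ± 0.189, SD, n = 3). The groups did not overlap, and the ratio of the means was 0.732. An exact two-sided permutation test gave p = 0.1, the smallest value that 3 libraries against 3 allow. The median gene had 6.45%, 5.91% and 5.90% of its own reads converted in ΔB/BID cells and 8.00%, 7.39% and 7.34% in ΔBID cells, again without overlap. A T>C read carried 2.46 to 2.47 conversions on average in ΔB/BID cells and 2.50 to 2.54 in ΔBID cells. Whether labelling itself differed between the strains was not tested.

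**Figure D1:**
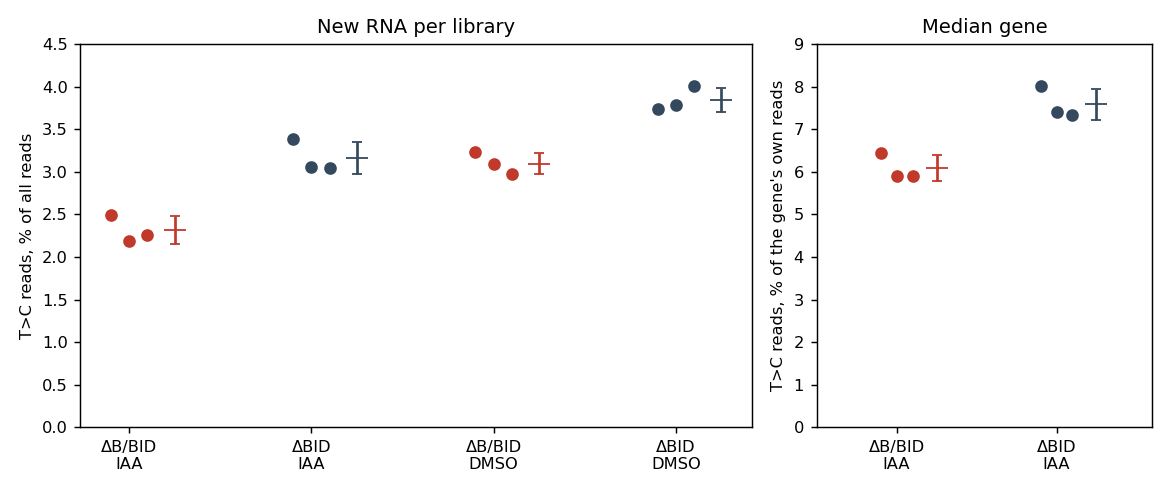
T>C reads as a percentage of all reads in the ΔB/BID and ΔBID libraries on IAA and DMSO (left) and the percentage of its own reads that the median gene had converted on IAA (right). Each point is 1 library, and the bars are means with SD (n = 3). The ΔB/BID libraries lie below the ΔBID libraries in each pair, at 2.18% to 2.49% against 3.05% to 3.38% on IAA.

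The strains already differed on DMSO, with endogenous Bdf1 and Bdf2 present. T>C reads were 3.23%, 3.09% and 2.98% of reads in ΔB/BID cells (3.10% ± 0.126, SD, n = 3) and 3.74%, 3.79% and 4.00% in ΔBID cells (3.84% ± 0.142, SD, n = 3), a ratio of 0.806 (exact two-sided permutation p = 0.1, the smallest possible). Within a strain, the IAA share over the DMSO share was 0.747 in ΔB/BID cells and 0.823 in ΔBID cells. Both strains therefore had less new RNA on IAA than on DMSO, with no overlap between treatments.

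Across single genes, loss of motif B on top of the BID went with lower new RNA at about as many genes as stayed without a call. Of 3438 genes with a mean of at least 10 T>C reads, 1818 were lower in ΔB/BID IAA libraries than in ΔBID IAA libraries (52.9% of genes tested) and 33 were higher (0.960%), by edgeR's quasi-likelihood test on T>C reads over library totals with Benjamini-Hochberg adjusted p under 0.05. The median log2 fold change over all genes tested was -0.65. Measured directly on log2 T>C reads scaled to 10000000 reads per library (normalised T>C reads below), the median difference of group means was -0.66, with an SD of the library medians of 0.12 in ΔB/BID cells and 0.085 in ΔBID cells. The shift was present in each library, since the ΔB/BID medians lay 0.50, 0.74 and 0.64 log2 units below the ΔBID mean.

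How many genes were called depended on what T>C reads were divided by. Reads in ΔB/BID cells were concentrated in abundant transcripts, with the 100 genes of most reads holding 55.0% to 56.8% of reads in ΔB/BID cells and 50.9% to 51.5% in ΔBID cells. With DESeq2 size factors of total reads, which follow the typical gene, 12% of the genes were lower and 4.68% (161 genes) higher, with a median of -0.23. When each gene's T>C reads were set against its own total reads, a test added after the data were seen, 297 genes were lower (8.64%) and 0 higher (0%), with a median of -0.27 (at an unadjusted p below 0.05, 810 and 5). With TMM factors of the T>C reads themselves, which centre most genes near 0, 185 were lower and 320 higher, with a median of -0.04. Fold changes below therefore use library totals unless stated, and gene groups are read against the median of -0.65.

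**Figure D2:**
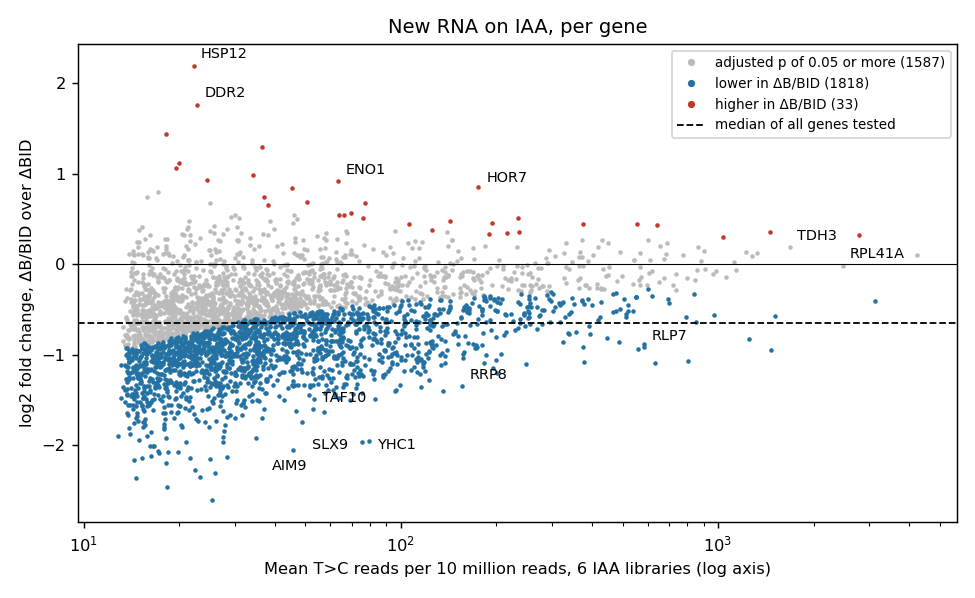
Log2 fold change of new RNA, ΔB/BID over ΔBID on IAA, for each of 3438 genes (vertical axis) against its mean normalised T>C reads (horizontal log axis), coloured by the edgeR call. Most genes lie below 0, around the dashed median of -0.65, and HSP12, DDR2, ENO1 and HOR7 stand among the 33 higher genes.

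The largest falls among well-covered genes had log2 fold changes of -2.06 to -1.49 and included factors of ribosome assembly, splicing and TFIID. Values of single genes are normalised T>C reads. SLX9 (YGR081C, VII:642898-643780), a factor of small ribosomal subunit assembly, had 38.4, 23.2 and 30.8 in ΔB/BID cells (30.8 ± 7.61, SD, n = 3), against 138, 124 and 99.2 in ΔBID cells (120.4 ± 19.8, SD, n = 3). The log2 fold change was -1.97 (SE 0.22, adjusted p = 9.6e-11, edgeR). YHC1 (YLR298C, XII:724471-725416), a protein of the U1 snRNP that recognises the 5′ splice site, had 52.3, 24.6 and 22.8 in ΔB/BID cells and 127, 134 and 115 in ΔBID cells, a log2 fold change of -1.96 (SE 0.22, adjusted p = 9.6e-11). AIM9 (YER080W, V:319963-322096), found in a screen for mitochondrial inheritance, had 14.0, 31.9 and 6.70 in ΔB/BID cells and 86.3, 67.0 and 69.0 in ΔBID cells. Its ΔB/BID libraries spread more than those of SLX9, and its log2 fold change was -2.06 (SE 0.28, adjusted p = 1.9e-08). TAF10 (YDR167W, IV:789449-790319), a subunit shared by TFIID and the SAGA coactivator, had 27.9, 23.2 and 26.8 in ΔB/BID cells and 86.3, 65.8 and 87.1 in ΔBID cells, a log2 fold change of -1.61 (SE 0.24, adjusted p = 1.8e-07).

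The other genes among the 10 largest falls had log2 fold changes of -1.75 to -1.49. They were YRB2 (-1.75), a Ran-binding protein of nuclear export, GET2 (-1.64), which helps insert tail-anchored proteins into membranes, PRP6 (-1.62), a splicing factor of the tri-snRNP, DBP10 (-1.51), a helicase of large ribosomal subunit assembly, PMT6 (-1.49), a protein O-mannosyltransferase, and DAL80 (-1.49), a GATA repressor of nitrogen genes. All 10 stayed negative with size factors, between -1.64 and -1.07, and with each gene's own reads, between -1.17 and -0.39. The own-read change passed the threshold at AIM9 (adjusted p = 0.0005), SLX9 (0.0012) and YHC1 (0.0048) but not at TAF10 (0.11) or DAL80 (0.18), by the same edgeR test. The 10 were drawn from 601 lower genes whose groups did not overlap and whose ΔBID mean was at least 50 T>C reads. The lack of overlap was thus required by the choice, none of the 10 averaged 50 reads in the ΔB/BID libraries, and their values are a description.

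Fewer genes rose over library totals. Leaving out ΔBID library B took the count of higher genes to 20. The 10 largest rises were drawn from 17 higher genes whose groups did not overlap and whose ΔB/BID mean was at least 50 T>C reads. Before scaling, ENO1, YGP1, YNL190W and CMC4 averaged 33.7, 46, 44 and 40 T>C reads in ΔBID libraries, so they met that minimum only through the ΔB/BID libraries. The lack of overlap was required by the choice, and the values are a description. ENO1 (YGR254W, VII:1000927-1002490), the glycolytic enzyme enolase, had 76.8, 94.1 and 77.8 in ΔB/BID cells (82.9 ± 9.75, SD, n = 3), against 45.6, 40.4 and 46.0 in ΔBID cells (44.0 ± 3.10, SD, n = 3). The log2 fold change was 0.92 (SE 0.21, adjusted p = 0.00034, edgeR). HOR7 (YMR251W-A, XIII:774752-775181), a small membrane protein induced by osmotic stress, had 202, 232 and 239 in ΔB/BID cells and 148, 97.0 and 133 in ΔBID cells, a log2 fold change of 0.85 (SE 0.16, adjusted p = 8.3e-06). YGP1, a secreted glycoprotein of stationary phase and stress, had 82.0, 91.2 and 111 in ΔB/BID cells and 60.2, 58.9 and 60.5 in ΔBID cells, a log2 fold change of 0.67 (adjusted p = 0.0039). The remaining 7 of the 10 largest rises lay between 0.44 and 0.57, among them the cell wall proteins YNL190W (0.57) and TOS6 (0.50), the plasma membrane protein MRH1 (0.48) and CYC1 (0.44), which encodes cytochrome c. For YGR210C, one of these 7, the call rested on the ΔB/BID library B, which had 821 against 555 and 549.7 in the other ΔB/BID libraries, and without it the log2 fold change was 0.23 (adjusted p = 0.16).

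The rises in new RNA went with rises in the total reads of the same genes. Total reads, tested with TMM factors, had log2 fold changes of 1.14 for ENO1, 1.45 for HOR7 and 1.46 for YGP1, and of 0.69 to 1.01 for the other 7. Over all genes the median in total reads was -0.04 with TMM factors and -0.45 over library totals, so these sizes cannot be set against those of new RNA. Over library totals, ENO1 averaged 553.6 CPM in ΔB/BID cells and 334.1 in ΔBID cells, HOR7 2498 and 1225, and YGP1 290.4 and 140.8. The T>C share of a gene's own reads moved between -0.39 for YGP1 and 0.24 for CMC4, a protein of the mitochondrial intermembrane space, and none of these 10 passed the threshold on that measure. At HOR7, for example, 0.906%, 0.882% and 0.907% of the gene's own reads were converted in ΔB/BID cells, against 1.01%, 1.05% and 1.04% in ΔBID cells. New RNA of HOR7 was thus higher over the library total and its own-read share was lower in each ΔB/BID library.

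**Figure D3:**
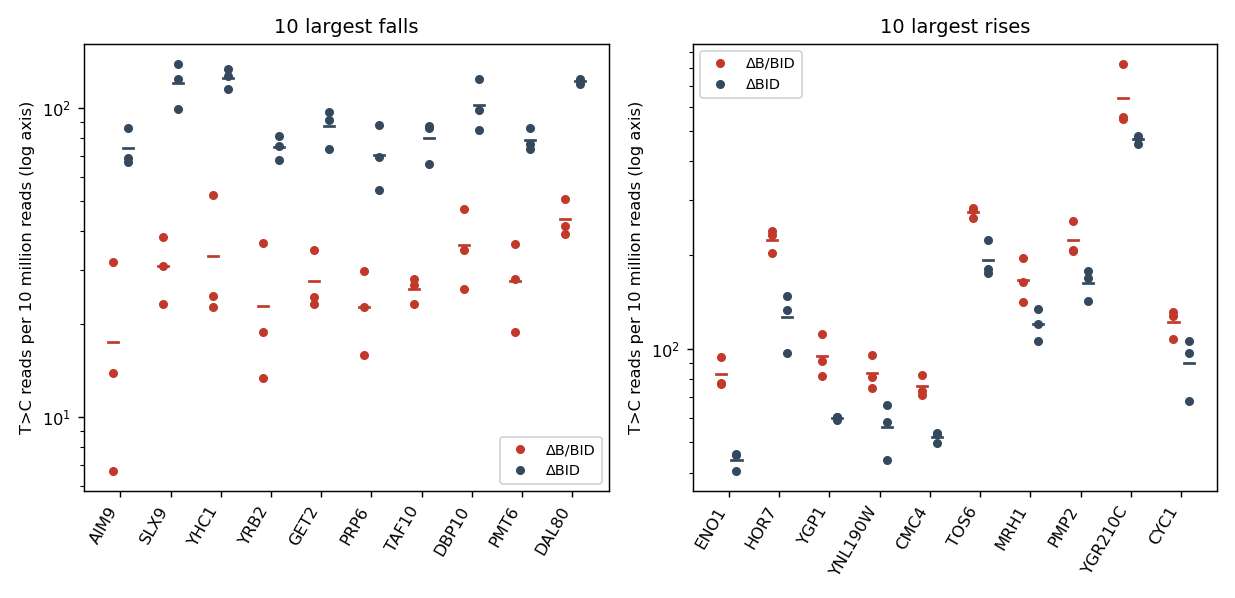
Normalised T>C reads (log axes) in each ΔB/BID (red) and ΔBID (dark blue) IAA library for the 10 largest falls (left) and the 10 largest rises (right). Points are libraries and short lines are means of 3. The groups do not overlap at any of the 20 genes, as the choice of genes required.

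Among genes too low for that choice, HSP12 and DDR2 had the largest fold increases of the stress genes under the factors Msn2 and Msn4. HSP12 (YFL014W, VI:107256-107835), a small membrane-protecting heat shock protein, had 36.6, 40.6 and 32.2 in ΔB/BID cells and 9.77, 6.93 and 7.26 in ΔBID cells, a log2 fold change of 2.19 (SE 0.37, adjusted p = 2e-06, edgeR). On DMSO it had 19.9, 35.3 and 40.2 in ΔB/BID cells and 5.23, 7.05 and 1.14 in ΔBID cells, a log2 fold change of 2.73 (adjusted p = 1.7e-06). The gap was present with and without endogenous Bdf1 and Bdf2. On DMSO too, HSP12 reached the minimum mean of 10 T>C reads only through the ΔB/BID libraries, so its DMSO values are a description. DDR2, another small stress-induced protein, had 15.7, 36.2 and 52.3 in ΔB/BID cells and 14.7, 6.93 and 10.9 in ΔBID cells, a log2 fold change of 1.76 (adjusted p = 6.8e-05), with ΔB/BID library A barely above the ΔBID range. Before scaling, HSP12 averaged 24.3 T>C reads in ΔB/BID libraries and 6.0 in ΔBID libraries, and DDR2 24.3 and 8.0, so both reached the minimum mean of 10 only through the ΔB/BID libraries.

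Promoter sequences are shown for genes at both ends of the range, as context for the groups that follow. They were read from the RefSeq R64 genome within 500 bases before the start codon, and capitals mark letters of searched motifs found by a script. The stress response element AGGGG, or CCCCT on the other strand, is bound by Msn2 and Msn4. The windows of HSP12 (chrVI:107053-107082, + strand), DDR2 (chrXV:231914-231943, - strand), HOR7 (chrXIII:774488-774517, + strand) and ENO1 (chrVII:1000513-1000542, + strand) hold it, and for HSP12 and DDR2 the match lies 190 and 175 bases before the start codon. GATGAG (the PAC motif) and AAAATTTT (the RRPE motif), which do not overlap in letters, are found together before many ribosome assembly genes. SLX9 (chrVII:643821-643850, - strand) held GATGAG at 58 bases, and DBP10 (chrIV:394063-394092, + strand) and RRP8 (chrIV:611969-611998, + strand) held both within 30 bases.
HSP12: ggttccggtcgtcCCCCTcttgatctgaaa
DDR2: ttgtcttttctcaCCCCTtatgggacatca
HOR7: ctatttgggtaagCCCCTttctgttttcgg
ENO1: ttcgcctctcccgCCCCTgataacgtccac
SLX9: cattacagactcGATGAGcagagataagag
DBP10: gctcttAAAATTTTcaagcGATGAGatgaa
RRP8: ggcctgaAAAATTTTgcGATGAGctcaaaa

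Such matches are common, and each is a description only. AGGGG on either strand was in 34.1% of 6006 promoters, in all 20 promoters of the Msn2/4 list and in 28 of the 119 of the ribosome biogenesis list. It was in the promoters of 7 of the 17 higher genes that met the rule for naming and of 5 of the 10 largest falls. The median log2 fold change was -0.58 over tested genes with AGGGG and -0.69 over those without it. GATGAG was in 28.2% of promoters and in 107 of 119 ribosome biogenesis promoters (89.9%), and AAAATTTT in 12.4% of promoters and in 97 of 119 (81.5%). Both lay within 30 bases of each other in 161 promoters (2.68%), 64 of them in the ribosome biogenesis list. Of 149 tested genes with the pair, 119 were lower (79.9%, against 52.9% of all genes tested), with a median of -0.80. The 86 such genes outside the list had 61 lower (70.9%) and a median of -0.81, against a median of -0.64 over genes without the pair. The TATA box letters TATAAA were in 60.5% of promoters and in those of 14 of the 17 higher genes.

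TFIID, which recognises core promoters and is the complex most closely tied to Bdf1, lost new RNA at most of its subunit genes. All 14 subunit genes were tested, 11 were lower and 0 higher (all genes, 52.9% and 0.960%), and their median of -0.93 lay 0.28 below the median of all genes. TAF13 (-1.67), TAF10 (-1.61) and TAF7 (-1.35) led the list. Before scaling, TAF13 averaged 9.33 T>C reads in ΔB/BID libraries and 34.3 in ΔBID libraries, and TAF6 averaged 7 and 16. Both are among the 11 lower genes but reached the minimum mean of 10 only through the ΔBID libraries, so their values are a description. TAF7 had 45.4, 39.1 and 28.2 in ΔB/BID cells and 86.3, 86.6 and 110.1 in ΔBID cells, without overlap (adjusted p = 1.1e-06, edgeR). TAF1 was at -0.71 (adjusted p = 0.027) but at 0.02 against its own reads. TAF2, TAF4, TAF5, TAF6, TAF8, TAF9 and TAF11 lay between -1.18 and -0.80 and passed the threshold too. TAF3 (-0.45), TAF12 (-0.21) and TAF14 (-0.50) did not pass. With size factors 4 of the 14 were lower (all genes, 12%) and the median was -0.51. Against own reads 2 were lower (all genes, 8.64%) with a median of -0.45.

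The Mediator list, a complex that bridges activators and RNA polymerase II, had a similar median. Of 25 genes 13 were tested, 9 were lower and 0 higher (all genes, 52.9% and 0.960%), and the median was -0.90. With size factors 1 was lower (all genes, 12%) with a median of -0.49. Against own reads 0 were lower (all genes, 8.64%) with a median of -0.28, close to the -0.27 of all genes. NUT2, a subunit of the middle module, had 8.72, 4.34 and 13.4 in ΔB/BID cells and 32.6, 27.7 and 29.05 in ΔBID cells, a log2 fold change of -1.71 (adjusted p = 0.00023, edgeR). Before scaling, NUT2 averaged fewer than 10 T>C reads in ΔB/BID libraries. It reached the minimum mean of 10 only through the ΔBID libraries, so its values are a description. The elongation and RNA processing list had 10 of 14 genes lower, 0 higher and a median of -0.74, which was 0.095 below that of all genes. With size factors 2 were lower (all genes, 12%) with a median of -0.33. Against own reads 0 were lower (all genes, 8.64%) with a median of -0.19, above that of all genes. SPT6, a histone chaperone that travels with the polymerase, had 138, 120.2 and 146 in ΔB/BID cells and 228, 228 and 229.9 in ΔBID cells, a log2 fold change of -0.76 (adjusted p = 3.2e-05). RTF1, a Paf1 complex member, was at -1.21 (adjusted p = 0.0001), while SPT4 (-0.26) and CDC73 (-0.47) did not pass.

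RNA polymerase II and the general factors sat at the level of all genes. Of 30 genes 25 were tested, and 14 were lower and 0 higher (all genes, 52.9% and 0.960%). The median of -0.62 lay 0.025 above that of all genes. RPB5, a subunit shared by the nuclear RNA polymerases, had 99.5, 72.4 and 79.1 in ΔB/BID cells and 155, 169 and 162 in ΔBID cells, a log2 fold change of -0.97 (adjusted p = 5.1e-06, edgeR). RPO21, the largest polymerase II subunit, had a log2 fold change of -0.18 (adjusted p = 0.31), which turned to 0.25 with size factors. The SWR1 complex, which places the histone variant H2A.Z and is linked to Bdf1, had 4 of 10 tested genes lower, 0 higher and a median of -0.63. SWC4 had 19.2, 15.9 and 24.1 in ΔB/BID cells and 48.8, 49.7 and 44.8 in ΔBID cells (-1.26, adjusted p = 0.00019), and RVB2 (-1.04), VPS72 (-0.91) and SWR1 (-0.66) passed as well. HTZ1, which encodes H2A.Z, was at -0.15 (adjusted p = 0.58).

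Over library totals, ribosome biogenesis genes fell at most members, but their count, like that of ribosomal protein genes, depended on the scale. Of 119 ribosome biogenesis genes 117 were tested, and 104 were lower and 0 higher (all genes, 52.9% and 0.960%). Their median of -0.81 was 0.16 below the median of all genes. RRP8, a ribosomal RNA methyltransferase, had 122, 68.1 and 75.1 in ΔB/BID cells and 264, 222 and 184 in ΔBID cells, a log2 fold change of -1.35 (SE 0.17, adjusted p = 1.9e-09, edgeR). RLP7, a large subunit assembly factor and the list's most abundant member in new RNA, had 516, 327.3 and 375 in ΔB/BID cells and 855, 744 and 695 in ΔBID cells (-0.92, adjusted p = 2e-08). With size factors 34 of the list were lower and 0 higher (all genes, 12% and 4.68%), and the median was -0.39. Against own reads 6 were lower (all genes, 8.64%) with a median of -0.16, above the -0.27 of all genes. In total reads with TMM factors, 47 were lower and 1 higher (all genes, 15.9% and 19.3%).

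Of 137 cytosolic ribosomal protein genes, 93 were lower over library totals and 0 higher (all genes, 52.9% and 0.960%). Their median of -0.42 lay 0.23 above that of all genes. That median was 0.01 with size factors and 0.20 with TMM factors, so its direction depended on the scaling. Against own reads 113 of the 137 were lower (all genes, 8.64%) with a median of -0.53. With TMM factors, their total reads were higher at 129 of 137 (all genes, 19.3%), with a median of 0.59. The list held 44.5% to 46.8% of all reads in ΔB/BID cells against 36.9% to 40.6% in ΔBID cells. RPS30B, a small subunit protein, had 703, 705 and 593 in ΔB/BID cells and 1088, 987 and 1047 in ΔBID cells, a log2 fold change of -0.64 (adjusted p = 5.1e-06, edgeR), and 1.10%, 1.15% and 0.966% of its own reads converted against 1.96%, 1.69% and 1.80%. Its new RNA and converted share were lower in all ΔB/BID libraries although its total reads were higher. RPL33A, of the large subunit, was at -0.92, but the ΔBID library C (785, against 355 and 324.6 in A and B) set much of that, and without it the log2 fold change was -0.38 (adjusted p = 0.031). Many of these genes have near-identical duplicates, so single values can be shared between copies.

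Genes of mitochondrial ribosomes, encoded in the nucleus, had a median close to that of the TFIID list. Of 67 genes 56 were tested, 38 were lower and 0 higher (all genes, 52.9% and 0.960%), and the median was -0.91. With size factors 12 were lower (all genes, 12% of those tested) with a median of -0.49. Against own reads 4 of the 56 were lower (all genes, 8.64%) with a median of -0.47. MRPL24 had 43.6, 28.97 and 52.3 in ΔB/BID cells and 89.5, 117 and 106 in ΔBID cells (-1.33, adjusted p = 7.7e-07, edgeR). MRPS16 had 33.2, 33.3 and 33.5 in ΔB/BID cells and 81.4, 84.3 and 73.8 in ΔBID cells (-1.25, adjusted p = 7.3e-06). Respiratory chain and ATP synthase genes lay above the median of all genes, with 6 of 33 lower and 1 higher. Their median of -0.27 turned to 0.15 with size factors. With TMM factors, total reads of all 34 were higher (all genes, 19.3%).

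Glycolysis and fermentation genes stood at the other end. Of 19 genes 18 were tested, 0 were lower and 4 higher (all genes, 0.960% higher), and the median of 0.08 lay 0.73 above that of all genes. With size factors 15 were higher (all genes, 4.68%) with a median of 0.50. Against own reads the median was -0.06 with 1 lower (all genes, 8.64%). The list's share of T>C reads was 4.06% to 4.15% in ΔB/BID cells against 2.80% to 2.89% in ΔBID cells. The glyceraldehyde-3-phosphate dehydrogenase gene TDH3, the list's most abundant in new RNA, had 1837, 1803 and 1728 in ΔB/BID cells and 1740.4, 1453 and 1518 in ΔBID cells (0.19, adjusted p = 0.12, edgeR). Its near copies TDH2 (0.44, adjusted p = 0.0033) and TDH1 (1.44, adjusted p = 0.0015) passed, and reads may be shared among the 3. With TMM factors, total reads were higher at 18 of 19 list members (all genes, 19.3%).

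The Msn2/4 stress and storage carbohydrate list was mostly too low in new RNA to test. Of 20 genes 6 were tested, HSP12 and DDR2 were higher, 0 were lower, and the median was 0.49. Since HSP12 and DDR2 were tested only because of their ΔB/BID reads, this count and median describe the 6 genes alone and support nothing about the list. TPS2, of trehalose synthesis, had 29.7, 20.3 and 21.5 in ΔB/BID cells and 53.7, 20.8 and 35.1 in ΔBID cells (-0.58, adjusted p = 0.092, edgeR), with overlapping groups. In total reads with TMM factors all 20 were tested, and 15 were higher and 0 lower (all genes, 19.3% and 15.9%). Their median there was 0.96. Histone genes had 0 of 9 lower and 0 higher (all genes, 52.9% and 0.960%) with a median of 0.14. With size factors 7 were higher (all genes, 4.68%). HHF2, for histone H4, had 1014, 889 and 934 in ΔB/BID cells and 1109, 656 and 821 in ΔBID cells, which overlapped. The Hsf1-driven chaperones had 10 of 20 lower and 0 higher, with a median of -0.38 that was 0.04 with size factors.

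Of all genes tested, 52.9% were lower and 0.960% higher, with a median of -0.65. The proteasome list had 20 of 33 lower and 0 higher (median -0.60), and amino acid biosynthesis 16 of 41 lower and 1 higher (median -0.51). The cyclins with SIC1 had 5 of 12 lower and 0 higher (median -0.45). Ergosterol synthesis had 4 of 21 lower and 0 higher, with a median of -0.33 that was 0.09 with size factors. The phosphate regulon had 4 of 9 lower and 0 higher, with a median of -0.23 that was 0.19 with size factors. Regions of the ribosomal DNA, a list added after the data were seen, had 13 of 17 lower and 0 higher with a median of -0.86, which was 0.21 below that of all genes. These regions are near-identical repeats that share reads, and they held 4.18% to 5.48% of all reads in ΔB/BID cells and 6.98% to 9.21% in ΔBID cells. Small nuclear and nucleolar RNA genes, also added, had 4 of 42 lower and 1 higher with a median of -0.03, which was 0.39 with size factors. The 4 tested genes of the mitochondrial genome, added likewise, had 1 lower, 0 higher and a median of -0.43.

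**Figure D4:**
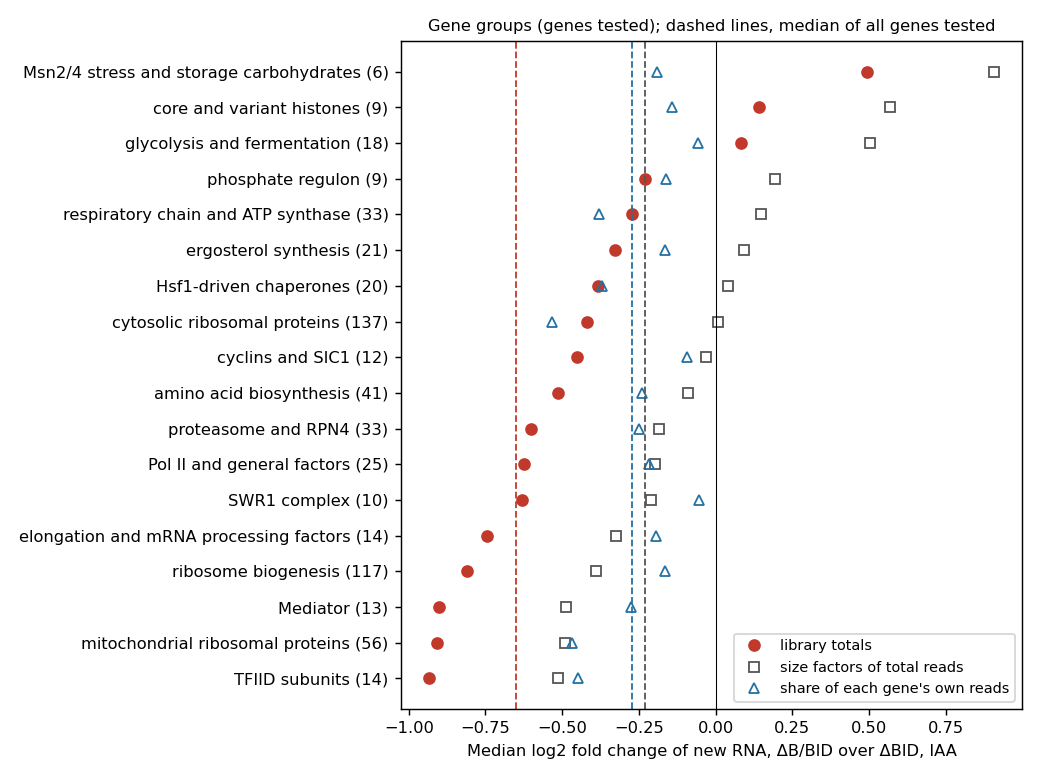
Median log2 fold change of new RNA, ΔB/BID over ΔBID on IAA, for each gene list, over library totals (circles), size factors of total reads (squares) and each gene's own reads (triangles), with the number of genes tested in parentheses and the medians of all genes as dashed lines. The TFIID list is lowest at -0.93 and the Msn2/4 list highest at 0.49 over library totals, with 2 of its 6 tested genes past the read minimum only through the ΔB/BID libraries. Squares follow the same order shifted to the right, while triangles span a narrower range.

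Over library totals, the medians were more negative at genes of low new RNA and at long genes. Sorted into 5 equal bins by T>C reads in the ΔBID DMSO libraries, which take no part in the IAA comparison, genes had medians of -0.72, -0.72, -0.68, -0.64 and -0.48 from the lowest bin to the highest. Sorted by the length of the counted region, the medians were -0.50, -0.63, -0.65, -0.71 and -0.74 from the shortest to the longest. No bin of either sorting had a median above 0. The share of genes called lower did not follow the medians by level. It was 39.1%, 46.7%, 54.7%, 62.6% and 61.3% from the lowest bin to the highest. By length it was 41.1% in the shortest bin and 60.2% in the longest. Against own reads the medians by level ran only from -0.29 to -0.26, and those by length were -0.32, -0.31, -0.23, -0.24 and -0.27 from the shortest to the longest, so the order by length did not hold on that scale.

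In total reads, the ΔB/BID and ΔBID IAA libraries differed in both directions. Of 5852 genes with a mean of at least 10 reads, 932 were lower in ΔB/BID cells (15.9%) and 1130 higher (19.3%), by edgeR with TMM factors. Over library totals the median gene's total reads were 0.45 log2 units lower, with 3736 genes lower (63.8%) and 5.35% higher. Leaving out ΔB/BID library B took the count of lower genes on the TMM scale to 578. SLX9 (-0.69), YHC1 (-0.79) and TAF10 (-0.64) were lower in total reads on the TMM scale, whose median over all genes was -0.04. TAF7 was at -0.26 on that scale (adjusted p = 0.018) and SPT6 at -0.02 (adjusted p = 0.86). With TMM factors of the T>C reads, new RNA of these 5 genes was at -1.35, -1.35, -0.99, -0.75 and -0.15. Over library totals, total reads of SPT6 averaged 434.6 CPM in ΔB/BID cells and 584.6 in ΔBID cells. Those of TAF7 averaged 67.9 and 107.9 CPM.

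On DMSO the same strains differed in the same direction at fewer genes. Of 4377 genes tested, 779 were lower in ΔB/BID cells (17.8%) and 17 higher (0.388%), with a median of -0.37. With size factors 147 were lower and 23 higher. Leaving out 1 library changed the share of lower genes to between 6.22% (without ΔB/BID library C) and 20.4% (without ΔB/BID library A), with 7.11%, 8.54% and 9.68% without ΔBID library C, ΔB/BID library B and ΔBID library B. SLX9 had 86.1, 82.3 and 79.0 in ΔB/BID cells and 149, 144.1 and 171 in ΔBID cells on DMSO, a log2 fold change of -0.90 (adjusted p = 0.0001, edgeR). In the ribosome biogenesis list 63 of 119 were lower and 0 higher on DMSO with a median of -0.52, and in the TFIID list 6 of 14 were lower and 0 higher with a median of -0.40. The IAA and DMSO comparisons share no library. Across 3437 genes their log2 fold changes had Pearson's r of 0.36 and Spearman's rho of 0.30, a description across genes, which are not independent replicates. Of these 3437 genes, tested in both, 1818 were lower on IAA and 730 on DMSO. Genes lower in both made up 30.1% of the IAA list and 74.9% of the DMSO list. For comparison, 52.9% of all genes tested on IAA and 17.8% of those tested on DMSO were lower.

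The change of the strain difference between IAA and DMSO was tested directly by the interaction of strain and treatment over 12 libraries. Of 3989 genes, 10 had a more negative difference on IAA (0.251%) and 0 a more positive one (0%), with a median of -0.29 (at an unadjusted p below 0.05, 607 and 39). The 10 were PRP5, SIR4, PKH3, AIM9, NCS6, MSH1, RKM5, YHC1, YPL071C and MRPS16. MRPS16 had 80.6, 73.5 and 95.7 in ΔB/BID cells and 85.1, 78.6 and 79.8 in ΔBID cells on DMSO, where the groups overlapped, and its interaction was -1.29 (adjusted p = 0.04, edgeR). YPL071C had 8.72, 4.34 and 8.04 in ΔB/BID cells and 48.8, 40.4 and 42.4 in ΔBID cells on IAA, and its interaction was -2.10 (adjusted p = 0.04). Each ΔB/BID IAA library held fewer than 10 T>C reads of YPL071C before scaling. It reached the minimum mean of 10 only through the other libraries, so its values are a description. With size factors 0 genes were more negative and 11 more positive, with a median of -0.01. Leaving out 1 of the 12 libraries gave 0 to 73 more negative genes, with 0 without any single ΔBID IAA library, ΔB/BID IAA library C, or library A or B of either strain on DMSO, 2 without ΔB/BID IAA library B, and 73, 67 and 33 without ΔB/BID IAA library A, ΔB/BID DMSO library C and ΔBID DMSO library C.

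Loss of motif B was also measured with the BID intact, as ΔB against WT, in libraries that share none with ΔB/BID and ΔBID. T>C reads were 2.74% ± 0.0504 of reads in ΔB IAA libraries (SD, n = 3) and 3.06% ± 0.224 in WT IAA libraries (SD, n = 6), a ratio of 0.897 (exact two-sided permutation p = 0.083). The ratio without the BID was 0.732. Over 3553 genes in a fit of 15 libraries, the median log2 fold change was -0.66 for ΔB/BID over ΔBID and -0.20 for ΔB over WT, with 632 lower and 4 higher, and 488 lower and 120 higher. At 2704 of the 3553 genes the value without the BID was lower than the value with it. These values for ΔB over WT depended on which WT libraries were used. With WT replicates A to C alone the median for ΔB over WT was -0.03, with 23.5% of genes lower and 20.8% higher, and with D to F alone it was -0.32, with 15.5% lower and 3.66% higher. In the fit of 12 libraries with D to F alone, ΔB/BID over ΔBID had 51.4% lower, 0.936% higher and a median of -0.64.

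**Figure D5:**
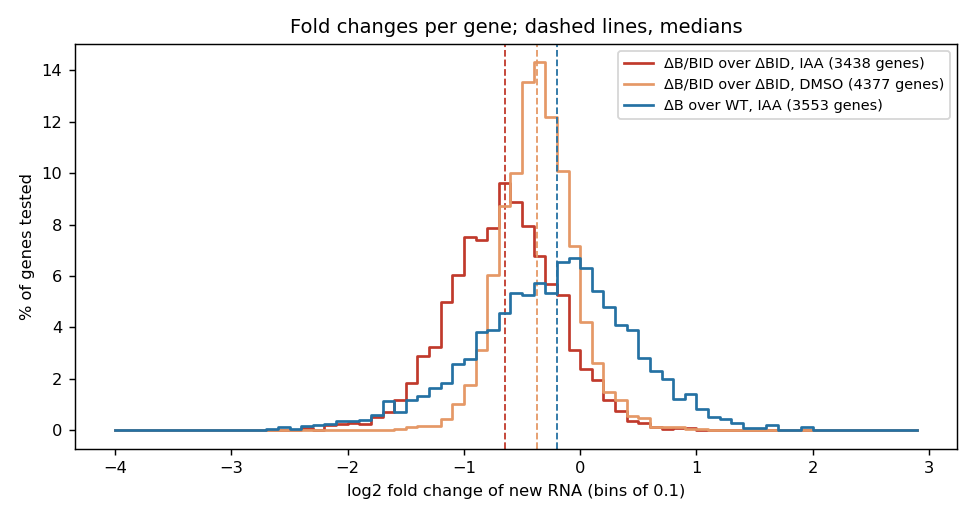
Percentage of genes tested (vertical axis) in bins of log2 fold change of new RNA (horizontal axis) for ΔB/BID over ΔBID on IAA, the same on DMSO, and ΔB over WT on IAA, with medians as dashed lines. The medians are -0.65, -0.37 and -0.20, and the ΔB over WT distribution is the broadest.

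The difference between these effects passed the threshold at few genes and depended on the WT libraries. Motif B loss without the BID minus motif B loss with it was negative at 26 of 3553 genes (0.732%) and positive at 0 (0%), with a median of -0.47 by edgeR (at an unadjusted p below 0.05, 627 and 67). WT replicates A to C had other library numbers than D to F and held 13.4% to 19.9% of their reads in RPL41A, a ribosomal protein gene, against 3.72% to 4.39% in D to F. With D to F alone 7.87% of genes were negative and 0.380% positive, with a median of -0.34, and with A to C alone 33.1% and 6.63%, with a median of -0.68. With size factors the counts were 0 and 0, and the median was -0.00. Leaving out any 1 ΔBID or ΔB library, or ΔB/BID library B or C, also gave 0 and 0, and leaving out ΔB/BID library A gave 2 negative, while 131, 41 and 50 were negative without WT library D, E and F.

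The genes of lowest p in that test were YBR196C-A (-2.40, adjusted p = 0.020), the small nucleolar RNA gene SNR38 (-2.75, adjusted p = 0.020) and PIK1 (-2.07, adjusted p = 0.025), which encodes a phosphatidylinositol 4-kinase. SNR38 had 10.5, 13.0 and 16.1 in ΔB/BID cells and 48.8, 35.8 and 37.5 in ΔBID cells, and averaged 33.2 ± 7.57 in ΔB cells (SD, n = 3) and 14.7 ± 5.38 in WT cells (SD, n = 6). Its new RNA was lower on loss of motif B without the BID and higher on loss of motif B with it. Before scaling, SNR38 averaged fewer than 10 T>C reads in ΔB/BID libraries, so it reached the minimum mean of 10 only through the other strains. PIK1 had 61.1, 21.7 and 41.6 in ΔB/BID cells and 112, 94.7 and 121 in ΔBID cells, and averaged 67.3 ± 9.37 in ΔB cells and 42.6 ± 6.59 in WT cells (SD, n = 3 and 6). With WT replicates D to F alone, the differences of SNR38 and PIK1 were -2.57 (adjusted p = 6.6e-05) and -1.97 (adjusted p = 1.6e-05). SLX9, the second largest fall, was at -1.96 in this test (adjusted p = 0.032), with 79.3 ± 5.98 in ΔB cells and 80.0 ± 28.5 in WT cells, and at -1.63 with D to F alone (adjusted p = 0.00011). TAF10 was at -0.37 (adjusted p = 0.65) and at -0.95 with D to F alone (adjusted p = 0.07), with 43.4 ± 5.58 in ΔB cells and 102 ± 37.0 in WT cells, so its new RNA was lower on loss of motif B in both settings.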

How the data were processed

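SLAM-seq libraries of RDY247 and RDY246 (3 per strain and treatment), and IAA libraries of RDY245 (3) and RDY234 (6), were analysed. The authors trimmed reads with fastp 0.23.2 and bbduk, aligned and counted them with SLAM-DUNK 0.4.3, and deposited per library the read counts and T>C read counts of 6465 gene regions (R64 genome), of which 6462 were matched to annotated genes. T>C read counts were tested with edgeR 4.0.16 (quasi-likelihood, Benjamini-Hochberg threshold 0.05) over the library's total reads, for genes with a mean of at least 10 T>C reads, and total reads with TMM factors. Levels used log2 of T>C reads scaled to 10000000 reads per library, plus 0.5. DESeq2 1.42.0 gave alternatives. Scripts were checked on simulated counts. Named genes were the 10 largest falls and rises whose groups did not overlap and whose higher mean was at least 50 T>C reads, up to 3 genes of lowest p and the gene of most T>C reads in each list, and the 3 of lowest p in the interaction and in the motif B by BID test. HSP12 and DDR2 came from the list part of the rule. The comparison and the gene lists were chosen with earlier results of these data known. Same-letter replicates did not deviate together (correlations of -0.02 to 0.04), so letters were not used to pair libraries. The ends of the motif B and BID deletions were not used here.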

Additional observations from a re-analysis of the deposited data

Results flagged for a closer look

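The interaction of strain and treatment passed the threshold at 10 of 3989 genes (0.251%), all with a more negative ΔB/BID over ΔBID difference on IAA than on DMSO. The effect of motif B loss differed between cells without and with the BID at 26 of 3553 genes (0.732%), all more negative without the BID. That share was 33.1%, with 6.63% more positive, with WT replicates A to C alone, and 7.87%, with 0.380% more positive, with D to F alone. Both counts come from tests of the difference in edgeR, and with DESeq2 size factors of total reads the first gave 0 more negative and 11 more positive genes and the second 0 of each. Both fell to 0 when certain single libraries were left out. No WT library stood apart from the other 5 in its T>C share of reads.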

How the results depend on the processing

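Values are the percentage of genes tested that were lower, then higher, unless stated. For new RNA on IAA (52.9% and 0.960%), DESeq2 size factors of total reads gave 12% and 4.68%, no filter on low counts 34.8% and 0.550%, TMM factors of T>C reads 5.38% and 9.31%, DESeq2's Wald test on library totals 30.2% and 0.436%, and own reads as offset, added after seeing the data, 8.64% and 0%. Totals without the 100 genes of most reads gave 1.6% higher. Leaving out 1 library gave 37.7% to 52.3% lower and 0.615% to 1.18% higher. The median shift (-0.66) was -0.24 with size factors, -0.52 without the 100 genes, -0.27 on own reads and -0.72 to -0.59 leaving out 1 library. The T>C share difference (-0.85 percentage points) was -0.94 to -0.74. For DMSO (17.8% and 0.388%), size factors gave 3.36% lower, no filter 11.3%, the replicate block 9.14%, own reads 3.13% and 0%, and leaving out 1 library 6.22% to 20.4% lower and 0.180% to 0.505% higher. For the interaction (0.251% and 0%), size factors gave 0% and 0.276%, no filter 0.477% lower, and leaving out 1 library 0% to 1.79% lower and 0% to 0.0245% higher. For the motif B by BID difference (0.732% and 0%), size factors gave 0% lower, no filter 0.366% and 0.0159%, the replicate block 33.4% and 6.50%, WT replicates A to C alone 33.1% and 6.63%, D to F alone 7.87% and 0.380%, and leaving out 1 library 0% to 3.72% lower and 0% to 0.199% higher. In that block only WT replicates A to C share letters with the other strains. Correlations between same-letter libraries gave no pairing (-0.02 to 0.04), although reads at MET17 were highest in replicate A in all 4 groups. The block moved no count for new RNA on IAA, the interaction or total reads by over 1.5 times. For total reads (15.9% and 19.3%), library totals gave 63.8% and 5.35%, DESeq2 8.68% lower, and leaving out 1 library 9.85% to 14.8% lower and 15.2% to 18.6% higher. The causes of these changes were not tested.

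Of 1843 alternative values for 110 named genes, most kept their call, most others lost it, 18 gained it and 25 changed sign with a call before or after. Changes of sign with no call on either side are not in the 25, and with size factors they include RPO21 (0.25), TAF12 (0.21) and SPT4 (0.17). Among the 25, the log2 fold change changed sign on own reads at HOR7 (-0.20), YGP1 (-0.39), YNL190W (-0.035), MRH1 (-0.13), YGR210C (-0.0072) and TAF1 (0.016), and with size factors at RPL41A (0.41) and HSC82 (0.31). With TMM factors it was 0.069 at SPT16, 0.44 at RPO21, 0.60 at RPL41A, 0.021 at ATP3, 0.43 at QCR6, 0.021 at SIS1, 0.50 at HSC82, 0.10 at ASN1, 0.47 at ILV5, 0.47 at RPN4, 0.0035 at CLB6, 0.14 at SIC1, 0.46 at PCL1, 0.021 at ERG6, 0.015 at VTC3, 0.016 at PHO86 and 0.43 at PHO84. Depth limits the low genes, since a mean of 10 T>C reads was the least tested.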

Other observations

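Total reads at MET17, a gene that the strain background lacks, were uneven among replicates. It had 13.3, 3.48 and 0.134 CPM in ΔB/BID IAA libraries A, B and C and 18.6, 1.96 and 1.45 in ΔBID IAA libraries. On DMSO it had 26.9, 3.67 and 0.280 in ΔB/BID libraries and 21.3, 2.42 and 1.71 in ΔBID libraries. Replicate A was highest in all 4 groups.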
